A study of Arabidopsis thaliana with 2 samples.

Results

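A set of genes of sulfate uptake, sulfate reduction and the sulfur-deficiency response were examined in Arabidopsis thaliana seedlings exposed to cadmium. The set held 9 genes with 1 probe set each, among 22746 plant probe sets on the array. The genes were the sulfate transporters SULTR1;1 and SULTR4;2, the APS reductases APR1, APR2 and APR3, and the sulfur-deficiency genes BGLU28, SDI1, LSU1 and LSU2. They were chosen with the difference between the arrays already known, so their differences are given below as a description, with no test. The labels describe 1 sample exposed to 200 µM cadmium and 1 untreated control sample. Both were whole seedlings of the accession Col-0 aged 7 days, raised on diluted MS medium at 28 °C with 16 h of light and 8 h of dark. The series text and the treatment protocol put the exposure at 6 h, while the treated sample's own labels put it at 4 h. How many seedlings went into a sample is not given in the sources used here.

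Plants take up sulfur as sulfate through SULTR transporters and activate it to adenosine 5′-phosphosulfate (APS) with ATP sulfurylase. APS reductase then makes sulfite, sulfite reductase makes sulfide, and sulfide is built into cysteine, a precursor of glutathione. Cadmium is bound by glutathione and by phytochelatins, peptides made from glutathione, so that exposure to the metal draws on the same sulfur supply. When sulfur is short, Arabidopsis is known to induce uptake and reduction genes together with marker genes such as SDI1 and the LSU genes. The transcription factor SLIM1 is a known regulator of the uptake and marker genes.

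Of the 9 genes, 7 were higher on the cadmium array by 2-fold or more and 0 were lower by that much. All 3 APS reductases and all 4 sulfur-deficiency genes were among the 7, and both sulfate transporters fell short of the limit. Over all plant probe sets, 96 (0.422%) were higher by 2-fold or more and 142 (0.624%) were lower by as much. Scaling the arrays to the added hybridization controls turned that balance round, to 181 higher (0.796%) and 80 lower (0.352%), and left the count of 7 of 9 genes as it was. Because the genes were selected on this contrast, nothing is read from the gap between 7 of 9 and 0.422%. The median difference, cadmium minus control on the log2 scale, was 1.88 for the 9 genes and 0.02 for all plant probe sets. BGLU28, LSU1 and APR1 were among the 5 highest differences on the array, and 6 of the 9 genes were among the 15 highest. With 1 array per group, none of these differences has a replicate check and no p-value is given. RNA came from whole seedlings, so fewer cells of a type and less RNA per cell cannot be told apart.

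The APS reductases catalyse the step that commits activated sulfate to reduction in plastids, with glutathione as the electron donor. APR1 (AT4G04610, 255284_at) had a log2 signal of 10.89 on the cadmium array and 8.50 on the control array, which was 5.27-fold higher with cadmium. APR3 (AT4G21990, 254343_at) had 11.09 on the cadmium array and 9.05 on the control array, 4.12-fold higher. APR2 (AT1G62180, 264745_at) had 10.54 on the cadmium array and 9.27 on the control array, 2.41-fold higher. All 3 isoforms were thus higher with cadmium, with log2 differences of 2.40 for APR1, 2.04 for APR3 and 1.27 for APR2. In rank among all plant probe sets by difference, APR1 was number 5, APR3 number 7 and APR2 number 49. On the control array the 3 probe sets already lay at percentiles 81.5 (APR1), 87.1 (APR3) and 89.0 (APR2) of the plant probe sets, and on the cadmium array at percentiles 97.1, 97.6 and 96.1 in the same order of genes. A percentile depends on the probes as well as on the transcript, so it places the signal on the array and does not rank the isoforms by abundance. The plant probe sets were split into 4 groups of near-equal size by control signal. In the group with the highest signals, which held 5687, 1 had a difference at least as large as that of APR1, which was APR1 itself. The 2 at least as large as that of APR3 were APR1 and APR3, and the 14 for APR2 included all 3 isoforms. Because the genes were selected on this contrast, these counts are a description and no test.

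**Figure D1:**
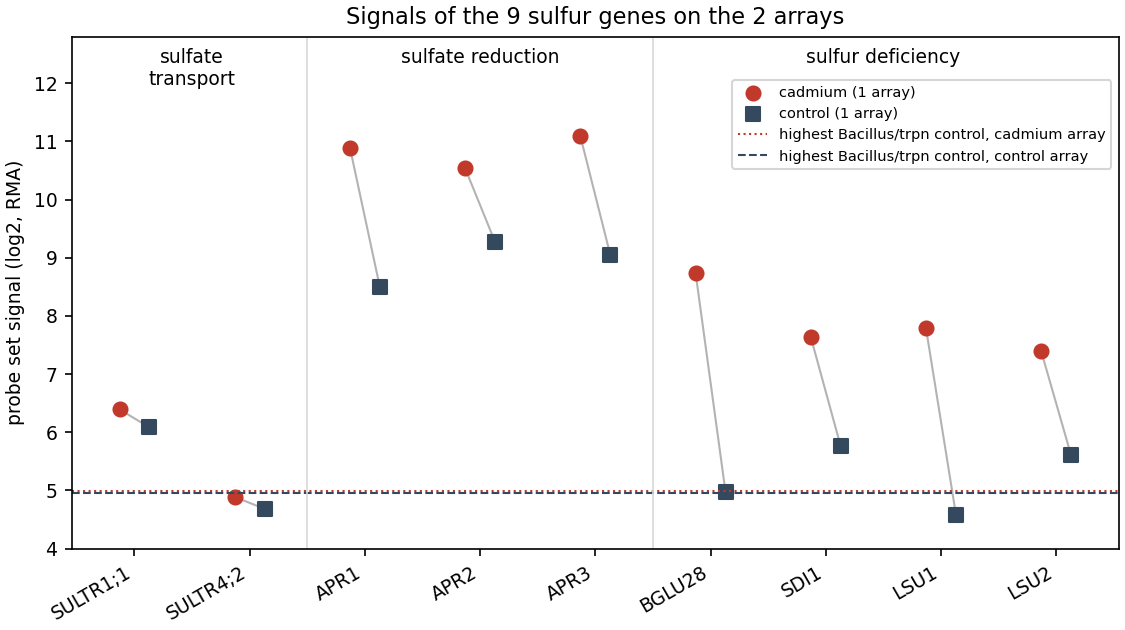
Signal of each of the 9 genes (log2, RMA) on the cadmium array (circles) and the control array (squares), 1 array each, with the genes grouped by role. The horizontal lines, which nearly coincide, mark the highest Bacillus or trpn control probe set on each array (4.98 cadmium, 4.95 control), and both signals of SULTR4;2 and the control signal of LSU1 lie below them.

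BGLU28 (AT2G44460) encodes a β-glucosidase, an enzyme class that removes glucose from conjugates, and is a widely used marker of sulfur deficiency that has been linked to glucosinolate breakdown. It had a log2 signal of 8.74 on the cadmium array and 4.97 on the control array. This 13.6-fold difference was the highest of the 22746 plant probe sets. The control signal was low, at percentile 29.5, and stood just above 4.95, the highest of the 27 probe sets for Bacillus and trpn controls on that array. The cadmium signal was at percentile 85.2. When 32 was added to each linear signal, which damps ratios of weak signals, the difference was 7.26-fold and its rank 3. The cadmium signal was thus well clear of the low controls, while the size of the fold change rested on a weak control signal.

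LSU1 (AT3G49580, 252269_at) and LSU2 (AT5G24660, 249752_at) belong to a family of small proteins named for their response to low sulfur. LSU1 had a log2 signal of 7.79 on the cadmium array and 4.58 on the control array, a 9.21-fold difference and rank 3 on the array. Its control signal lay below the highest of the Bacillus and trpn controls, and with 32 added the difference was 4.51-fold. LSU2 had 7.39 on the cadmium array and 5.60 on the control array, a 3.46-fold difference and rank 15. Both genes were higher with cadmium, with log2 differences of 3.20 for LSU1 and 1.79 for LSU2. In RefSeq gene order the neighbour of LSU1 is LSU3 and the neighbour of LSU2 is LSU4, and the probe sets of LSU3 and LSU4 were not named in the annotation used here.

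SDI1 (AT5G48850, 248676_at) encodes a repressor of aliphatic glucosinolate synthesis that acts on the regulator MYB28 when sulfur is short. It had a log2 signal of 7.64 on the cadmium array and 5.76 on the control array, 3.68-fold higher with cadmium and rank 11 on the array. SDI2 (AT1G04770), its closest relative, was not among the 9 genes and had 8.13 on the cadmium array and 6.74 on the control array. This was 2.63-fold higher with cadmium, at rank 31. Both SDI genes were therefore at least 2-fold higher, and the signals of both lay above all Bacillus and trpn controls on each array.

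Neither sulfate transporter reached a 2-fold difference, and SULTR1;1 alone of them was measured above the low controls. SULTR1;1 (AT4G08620, 255105_at), a high-affinity transporter of the root surface that is induced by sulfur starvation, had a log2 signal of 6.39 on the cadmium array and 6.08 on the control array. The difference was 0.31, or 1.24-fold, and 7.15% of all plant probe sets had a difference at least as high. SULTR4;2 (AT3G12520, 256244_at), which releases sulfate from the vacuole, had 4.89 on the cadmium array and 4.68 on the control array. Its difference was 0.21, or 1.15-fold, and 15.9% of plant probe sets had a difference at least as high. Both signals of SULTR4;2 lay below the highest Bacillus and trpn control on the same array, so a change in this transcript was not measurable in these values. The SD of the differences over all plant probe sets was 0.28, a spread between transcripts and not between samples, and the difference of SULTR4;2 was below it. Within the group of lowest control signals, which held SULTR4;2, the median difference was 0.075 and the SD 0.14. In that group 15.6% of probe sets had a difference at least as high as that of SULTR4;2. The difference of SULTR1;1 stayed above 0 under each setting tried, at 0.22 to 0.53, although the settings rework the same signals. That of SULTR4;2 ran from 0.10 to 0.42, and its sign is not read because its signals lay below the low controls.

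**Figure D2:**
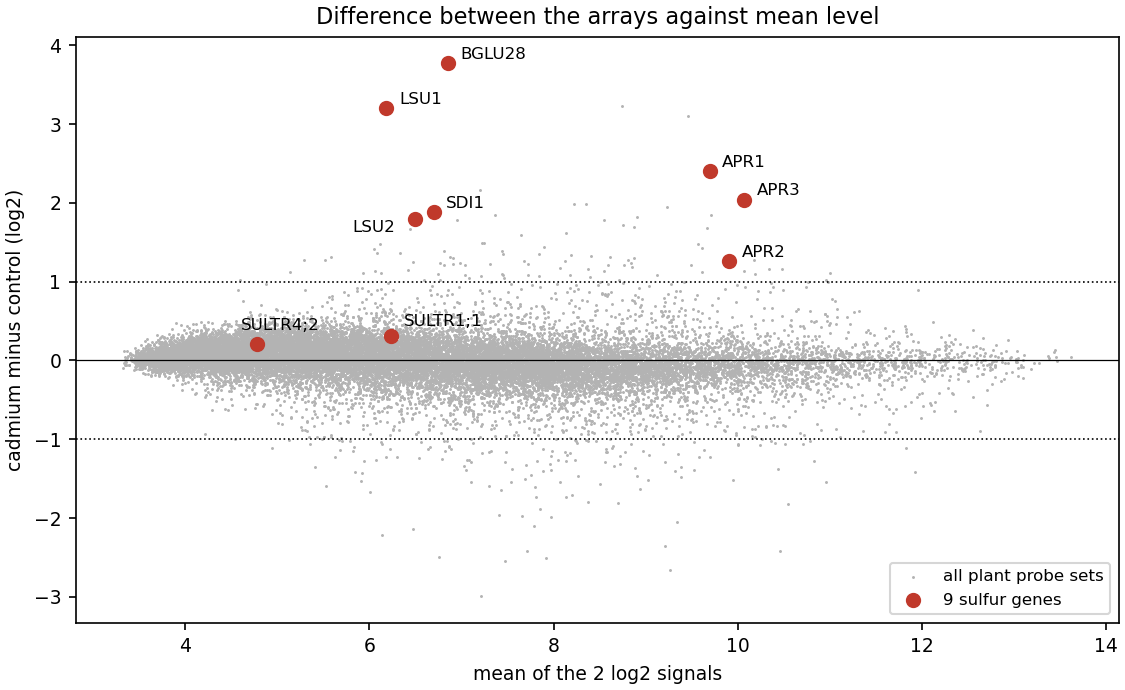
Difference between the arrays (cadmium minus control, log2) against the mean of both log2 signals for all 22746 plant probe sets (grey, 1 array per group), with the 9 sulfur genes in red. The dotted lines mark 2-fold, and 7 of the 9 genes lie above the upper line while SULTR1;1 and SULTR4;2 lie within the main cloud.

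By size of difference, the APS reductases and the sulfur-deficiency genes overlapped, and SULTR1;1 lay below every gene of both roles. The median log2 difference was 2.54 for the 4 sulfur-deficiency genes, with a range of 1.79 to 3.77. It was 2.04 for the 3 APS reductases, with a range of 1.27 to 2.40. No value is given for the transporters together, since SULTR4;2 was not above the low controls on either array. At a 3-fold limit, which 0.101% of plant probe sets passed upwards, 4 of 4 sulfur-deficiency genes and 2 of 3 APS reductases were counted, APR2 being the exception. With 32 added to each linear signal, SDI1 (2.68-fold) and LSU2 (2.48-fold) fell below 3-fold, while APR1 (4.92-fold) and APR3 (3.94-fold) did not. The log2 differences then ran from 1.31 to 2.86 for the sulfur-deficiency genes and from 1.22 to 2.30 for the APS reductases. The gap between the medians is therefore not read as a difference between the roles. Leaving SULTR4;2 aside, the order of the genes by difference was BGLU28, LSU1, APR1, APR3, SDI1, LSU2, APR2 and SULTR1;1. The order was the same after subtraction of the median difference, after subtraction of a lowess curve and after scaling to the added hybridization controls. With 32 added to each linear signal, APR1 came before LSU1. Without replicates, neighbours in this order cannot be said to differ.

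**Figure D3:**
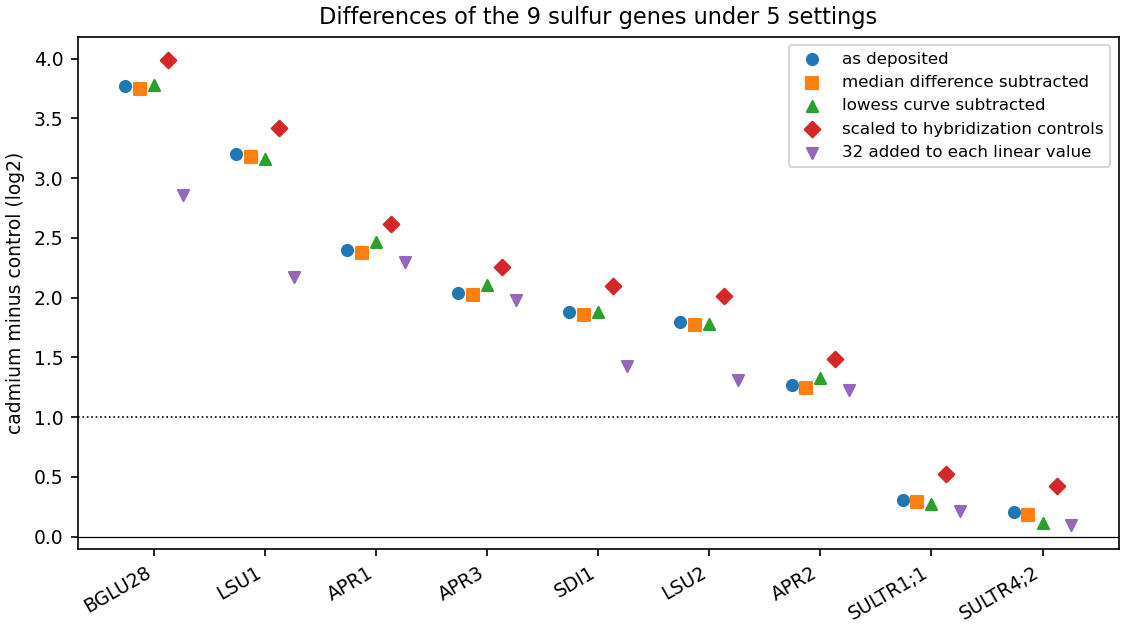
Differences of the 9 genes (cadmium minus control, log2) as deposited and under 4 other settings, with genes ordered by the deposited difference. The 7 genes counted stay above the dotted 2-fold line under all 5 settings, and adding 32 lowers BGLU28 and LSU1 the most.

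The remaining genes of the pathway were read from lists of 84 genes written from knowledge of the pathway, with earlier results of these data known. The annotation used here names probe sets for 8 of them beside the 9 genes, so most of the pathway was not analysed here. No other sulfate transporter, no gene of cysteine synthesis and no myrosinase was among the 8, and neither were SLIM1, GSH1, GSH2 and PCS1. Of the 8, 2 were at least 2-fold higher, SDI2 and ATPS3, and 0 were at least 2-fold lower. Over all plant probe sets the shares were 0.422% higher and 0.624% lower, and nothing is read from the gap. Their median log2 difference was 0.43.

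Among the enzymes next to APS reductase, ATPS3 (AT4G14680), an ATP sulfurylase that supplies APS, had a log2 signal of 9.23 on the cadmium array and 8.20 on the control array. The difference of 1.02, or 2.03-fold, was close to the limit and stood at 0.95 with 32 added. ATPS4 (AT5G43780), another ATP sulfurylase, had 9.64 on the cadmium array and 9.85 on the control array, a difference of -0.21 that became 0.01 when the arrays were scaled to the hybridization controls. Transcripts of both ATP sulfurylases are known targets of the sulfate-starvation microRNA miR395, which the annotation does not name on the array. SIR (AT5G04590), the single sulfite reductase of Arabidopsis, had 10.39 on the cadmium array and 10.08 on the control array, a difference of 0.31. With that same scaling SIR differed by 0.53. The probe sets of ATPS1 and ATPS2 were not named in the annotation, so the ATP sulfurylase step was read in part.

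Glutathione and glucosinolates use reduced sulfur further on. GR1 (AT3G24170), a glutathione reductase, had 9.63 on the cadmium array and 9.07 on the control array, 1.47-fold higher. GR2 (AT3G54660), the organellar form, had 9.06 on the cadmium array and 9.31 on the control array, a difference of -0.26. UGT74B1 (AT1G24100), a glucosyltransferase of the glucosinolate core pathway, had 9.98 on the cadmium array and 9.14 on the control array. Its difference of 0.83 reached 1.05 after scaling to the hybridization controls. BCAT4 (AT3G19710), an aminotransferase that starts the chain elongation of methionine for aliphatic glucosinolates, had 7.97 on the cadmium array and 8.42 on the control array, a difference of -0.45. None of these 4 genes differed by 2-fold in the deposited values.

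BGLU28 was also set beside its family. The annotation names 20 single-gene probe sets for numbered β-glucosidases, a family chosen for description after the values were seen. Of the 19 others, 11 did not exceed the highest Bacillus and trpn control on either array, so a change in these transcripts was not measurable in these values. Among the remaining 8, 0 were higher by 2-fold or more and 1 was lower by as much, against 0.422% and 0.624% of all plant probe sets. Their log2 differences had a median of -0.02 and ranged from -1.02 to 0.55. The lowest of these was that of BGLU19, with 5.28 on the cadmium array and 6.30 on the control array, and its difference of -1.02 became -0.64 with 32 added. The neighbours of BGLU28 in RefSeq gene order are BGLU15 and BGLU29. BGLU15 had 7.22 on the cadmium array and 6.67 on the control array, a difference of 0.55. BGLU29 had 4.19 on the cadmium array and 3.92 on the control array, both below the highest Bacillus and trpn control, so it gives no comparison.

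**Figure D4:**
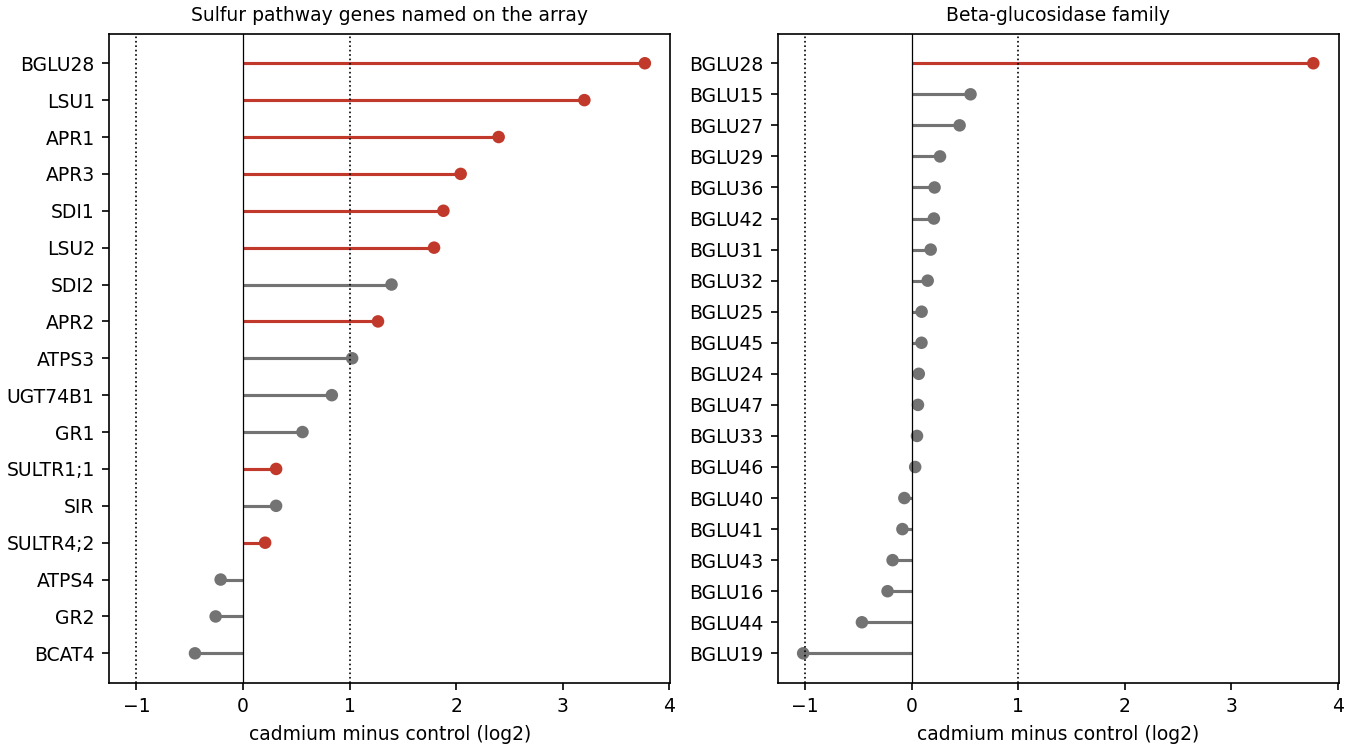
Differences (cadmium minus control, log2, 1 array per group) of the 17 sulfur pathway genes with a named probe set (left) and of 20 β-glucosidases (right), with the 9 sulfur genes in red, others in grey and dotted lines at 2-fold. Beside the 9 genes, SDI2 and ATPS3 reach 2-fold higher on the left, and BGLU28 stands apart on the right, where 11 of the 19 others were not above the low controls on either array.

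For context, the 5 other single-gene probe sets with the highest differences were GSTU25 (9.39-fold), AT2G23270 (3.95-fold), GSTU22 (3.85-fold), MSRB5 (3.60-fold) and AT4G37290 (3.44-fold). GSTU25 and GSTU22 encode glutathione S-transferases, and MSRB5 a methionine sulfoxide reductase. In difference, GSTU25 lay between BGLU28 and LSU1, and MSRB5 between SDI1 and LSU2. With 2 arrays, every pair of transcripts that differ correlates at either end of the scale, so likeness of pattern was not ranked.

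The medians of the plant probe sets were 6.22 on the cadmium array and 6.19 on the control array. The added hybridization controls differed by -0.27 for bioB, -0.28 for bioC, -0.25 for bioD and -0.07 for cre. Scaling to their mean of -0.22 raised every difference by that amount, although cre differed by less than the other 3 transcripts. Of the shoot and root markers listed for whole seedlings, 1 of 8 and 2 of 8 had a named probe set. RCA, the rubisco activase of green tissue, had 12.77 on the cadmium array and 12.83 on the control array. The root-hair expansins were lower with cadmium, EXPA7 at 6.08 on the cadmium array and 6.74 on the control array, and EXPA18 at 5.62 on the cadmium array and 6.27 on the control array. Their log2 differences of -0.67 and -0.66 remained below 0 under each setting tried. Whether the root share of the seedlings differed was not tested, nor was its part in the differences of root-expressed genes such as SULTR1;1.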

How the data were processed

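Each sample's total RNA was made into biotin-labelled cRNA and measured on 1 Affymetrix ATH1 array. The deposited table holds log2 signals per probe set, made by the authors with RMA and the R package affy, per the submitters' processing notes. The sources used here give no software version or settings. Quantile normalization is commonly part of RMA, and such a step would hide a shift shared by most transcripts. The table holds no detection calls and no replicates.

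The difference was computed as cadmium minus control on the log2 scale, with no filter or pseudocount, and probe sets past 2-fold were counted. No test was possible with 1 array per group, and precision is limited by the number of arrays. The counting code was run on simulated data with added differences well past the limit. That run checks the code and says nothing about the differences reported here. Alternatives were subtraction of the median or of a lowess curve (fraction 0.3), scaling to hybridization controls, 32 added to linear signals, a 3-fold limit, a filter on low mean levels, omission of _s_at and _x_at probe sets, and omission of BGLU28. The β-glucosidase and methionine sulfoxide reductase families were added after seeing the data.

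The platform annotation lists 14016 of the 22746 plant probe sets, 13513 with 1 gene symbol and 503 with several, and 13436 of the former matched RefSeq (assembly TAIR10.1) by gene ID. It names 1 of the 9 genes, BGLU28. The other 8 pairings of probe set and locus come from the definition of the gene set, and all 9 loci occur in RefSeq. All 9 identifiers carry the plain _at ending. Named genes were the 9 genes, in each list those at least 2-fold different and those with the highest and lowest difference, genes preset for their role where named, and the 5 other single-gene probe sets with the highest differences. The genes and lists were chosen with earlier results of these data known. Computations used Python 3.11.15, numpy 2.4.6, pandas 2.3.3, statsmodels 0.14.6 and matplotlib 3.10.9.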

Additional observations from a re-analysis of the deposited data

How the results depend on the processing

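The count of 7 of 9 genes at least 2-fold higher was the same with the median difference or a lowess curve removed, with the arrays scaled to the hybridization controls and with 32 added. It was 6 of 9 at a 3-fold limit and 6 of 8 without BGLU28. With the filter on low levels, which removed LSU1 and SULTR4;2, it was 6 of 7. Of the 11373 plant probe sets kept by that filter, 84 were higher by 2-fold or more, and nothing is read from the gap. The median difference of the 9 genes was 1.86 after subtraction of the median, 2.097 with the hybridization controls, 1.42 with 32 added and 1.84 without BGLU28, against 1.88 as deposited. Over all plant probe sets, 181 passed the limit upwards and 80 downwards with the hybridization controls, 63 higher and 91 lower with 32 added, and 23 higher and 28 lower at 3-fold, against 96 and 142 as deposited. These shifts follow from adding 0.22 to every difference, from damping weak signals and from the stricter limit. Of the 8 other pathway genes, 1 was at least 2-fold higher with 32 added and 0 at 3-fold, against 2 as deposited. Of 48 genes named or drawn, 8 changed sign under some alternative, among them ATPS4 and RCA and none of the 9 genes. No paired analysis was possible because each group has 1 array, and no array could be left out. Fold changes of BGLU28 and LSU1 moved by over 1.5 times with 32 added, as both had weak control signals.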

Other observations

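Methionine residues that have been oxidised are repaired by methionine sulfoxide reductases. The annotation names 5 single-gene probe sets of this family, described here after the values were seen. MSRB5 had a log2 signal of 10.64 on the cadmium array and 8.79 on the control array, 3.60-fold higher and rank 12 on the array. The other 4 ranged from -0.29 to 0.26, with MSRB3 at 8.68 on the cadmium array and 8.41 on the control array, MSRB9 at 9.45 on both arrays, MSRB6 at 8.66 on the cadmium array and 8.94 on the control array, and MSRA5 at 7.44 on the cadmium array and 7.73 on the control array. Of these 5 probe sets, MSRB5 alone was thus at least 2-fold different. Over all plant probe sets, 0.422% were higher and 0.624% lower by as much. The family was taken up with the difference of MSRB5 already seen, and members without a named probe set were not read. None of these differences has a replicate check.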
